A study of Mus musculus with 12 samples.

Results

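The satellite cell and myogenic regulator genes are 10 mouse genes chosen by name: Pax7, Megf10, Cdh15, Myf5, Myod1, Myog, Myf6, Mymk, Chrna1 and Chrng. They are 10 of the 54232 genes in each count table, and all 10 were among the 18618 genes that passed the filter on low counts. Polyadenylated RNA was sequenced from 12 skin wounds on the backs of mice. Wounds of the TD group (5 libraries) were covered with a Tegaderm film dressing alone, those of the Strain group (4 libraries) with a patch meant to stretch the skin by about 30%, and those of the No Strain group (3 libraries) with one that did not. Every mouse was a C57BLKS/J male with the genotype Lepr (db/db), a mutation of the leptin receptor that makes mice obese and diabetic, so no group stands for healing without diabetes. The wounds were full-thickness punches of 6 mm made at 12 weeks of age, and wound tissue was taken on day 10, at a labelled age of 12.5 weeks. It is not stated whether some wounds shared a mouse, so p-values measure only the spread between these samples.

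Mouse back skin carries a thin sheet of skeletal muscle, the panniculus carnosus, beneath the dermis and fat, and a full-thickness wound cuts through it. Skeletal muscle regenerates from satellite cells, stem cells that lie against the muscle fibre and are marked by the transcription factor PAX7. After injury they divide, switch on the myogenic regulatory factors MYF5 and MYOD1, and then MYOG (myogenin) as they leave the cell cycle. The resulting myocytes fuse through myomaker, the product of Mymk, and young fibres carry the acetylcholine receptor with its fetal gamma subunit. Myogenic regulatory factors pair with E proteins and bind the E-box, the letters CANNTG, in the control regions of muscle genes.

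The stretches of 250 bases before the RefSeq start sites of Myog, Chrna1, Chrng and Pax7 are printed here to set the E-box letters of 3 genes of the late steps beside the window of the stem cell gene. RefSeq entries (build GRCm38.p6) were matched for 6 of the 10 genes: Pax7, Myog, Myf5, Chrna1, Chrng and Cdh15. Each sequence runs 5′ to 3′ on the gene's own strand, and capitals mark every CANNTG, which reads the same on both strands. The coordinates are chr1:134289754-134290003 on the plus strand for Myog, chr2:73580339-73580588 on the minus strand for Chrna1, chr1:87205561-87205810 on the plus strand for Chrng and chr4:139832969-139833218 on the minus strand for Pax7.
Myog: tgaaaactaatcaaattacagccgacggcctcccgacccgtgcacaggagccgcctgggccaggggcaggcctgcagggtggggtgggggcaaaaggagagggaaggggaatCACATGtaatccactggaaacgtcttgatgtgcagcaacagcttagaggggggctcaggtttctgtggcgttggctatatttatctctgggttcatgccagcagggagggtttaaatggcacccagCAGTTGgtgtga
Chrna1: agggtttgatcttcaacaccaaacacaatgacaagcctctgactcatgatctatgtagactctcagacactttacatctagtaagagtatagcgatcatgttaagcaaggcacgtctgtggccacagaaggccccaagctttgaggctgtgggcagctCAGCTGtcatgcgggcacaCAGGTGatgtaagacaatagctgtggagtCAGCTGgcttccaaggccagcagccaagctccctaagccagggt
Chrng: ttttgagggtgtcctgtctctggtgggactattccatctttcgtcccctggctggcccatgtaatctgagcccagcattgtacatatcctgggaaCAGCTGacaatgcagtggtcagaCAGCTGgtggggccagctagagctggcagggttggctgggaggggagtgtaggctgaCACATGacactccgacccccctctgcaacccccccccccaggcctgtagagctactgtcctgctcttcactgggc
Pax7: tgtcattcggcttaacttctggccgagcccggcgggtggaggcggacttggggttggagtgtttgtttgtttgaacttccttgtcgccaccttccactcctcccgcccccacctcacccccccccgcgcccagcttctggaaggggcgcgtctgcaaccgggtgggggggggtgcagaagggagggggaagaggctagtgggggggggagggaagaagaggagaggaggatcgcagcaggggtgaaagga

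The Myog window held 2 E-boxes, CACATG 138 bases and CAGTTG 12 bases before the start. Chrna1 held 3, with CAGCTG at 92 and 44 bases and CAGGTG at 73. Chrng also held 3, with CAGCTG at 155 and 132 bases and CACATG at 75. In the unprinted Cdh15 window there were 3 as well, CATATG at 236, CATGTG at 135 and CACGTG at 32 bases. The windows of Pax7 and Myf5 held none, which says only that these letters are not in those 250 bases. Of 32851 RefSeq promoters of the same length, 66.2% held at least 1 CANNTG, 31.8% at least 2 and 12.2% at least 3. The form CAGCTG, itself a CANNTG, stood in 13.0% of promoters, and 2 or more copies, as in Chrna1 and Chrng, in 1.26%. In GENCODE M21 the genes begin further upstream for Chrng (87204657), Pax7 (139833528) and Cdh15 (122847966). The windows of these genes therefore lie inside the annotated gene and are not upstream of every annotated start. These matches describe letters and are not measured binding sites.

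Each library held 20354677 to 25059371 counts, so 3 counts corresponded to at most 0.147 CPM of the unadjusted total. CPM is the unit of level used below: counts divided by the library total and put on a common scale, with totals adjusted in all later values by TMM, the trimmed mean of M-values. Such limits cover counting error only. Of genes tested in the edgeR quasi-likelihood fit, 12.6% passed an adjusted p of 0.05 between Strain and TD (6.2% higher, 6.41% lower), 17.8% between No Strain and TD (9.35% higher, 8.4% lower) and 0% between Strain and No Strain. Markers of other tissue moved too. A list of 22 mature muscle fibre genes summed to 8152 to 20120 CPM in TD, 3836 to 7250 in Strain and 5636 to 12030 in No Strain, with Tnnc2 too low to test. All 5 neutrophil markers passed as higher in Strain than in TD and 3 of 5 in No Strain, while 4 and 5 of 5 adipocyte markers passed as lower. Higher calls numbered 3 of 4 for endothelial markers in both comparisons, and lower calls 1 and 3 of 8 for Schwann cell markers. Smooth muscle markers gave 1 higher and 2 lower of 8 in both, and no keratinocyte (6), fibroblast (5) or macrophage (5) marker passed. No list had a gene past the threshold between Strain and No Strain. Titles numbered 1 to 6 are TD and 7 to 15 are patched wounds, so any effect of that order cannot be told apart from the patch.

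Levels of different genes can be compared only per length of exon. On the scale of CPM per kilobase, averaged over the 12 libraries, the order was Myog 9.17, Myf6 7.00, Mymk 5.21, Chrna1 2.77, Myod1 1.94, Cdh15 1.67, Chrng 1.27, Megf10 0.389, Myf5 0.187 and Pax7 0.122. The late genes, the differentiation factor Myog, the fibre factor Myf6 and the fusion gene Mymk, thus stood above the stem cell gene Pax7. Neighbours kept this order in 9 to 12 of the 12 libraries, except that Myod1 was above Cdh15 in only 5. Myod1 and Cdh15 did not differ in level beyond their spread. Low levels limit Pax7, with 5 to 35 counts per library, and Myf5, with 2 to 19. Both passed the filter on low counts through the TD libraries, where they were highest, and neither passed it among the Strain and No Strain libraries alone, so their calls against TD are of genes kept by the group in which they are high.

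**Figure D1:**
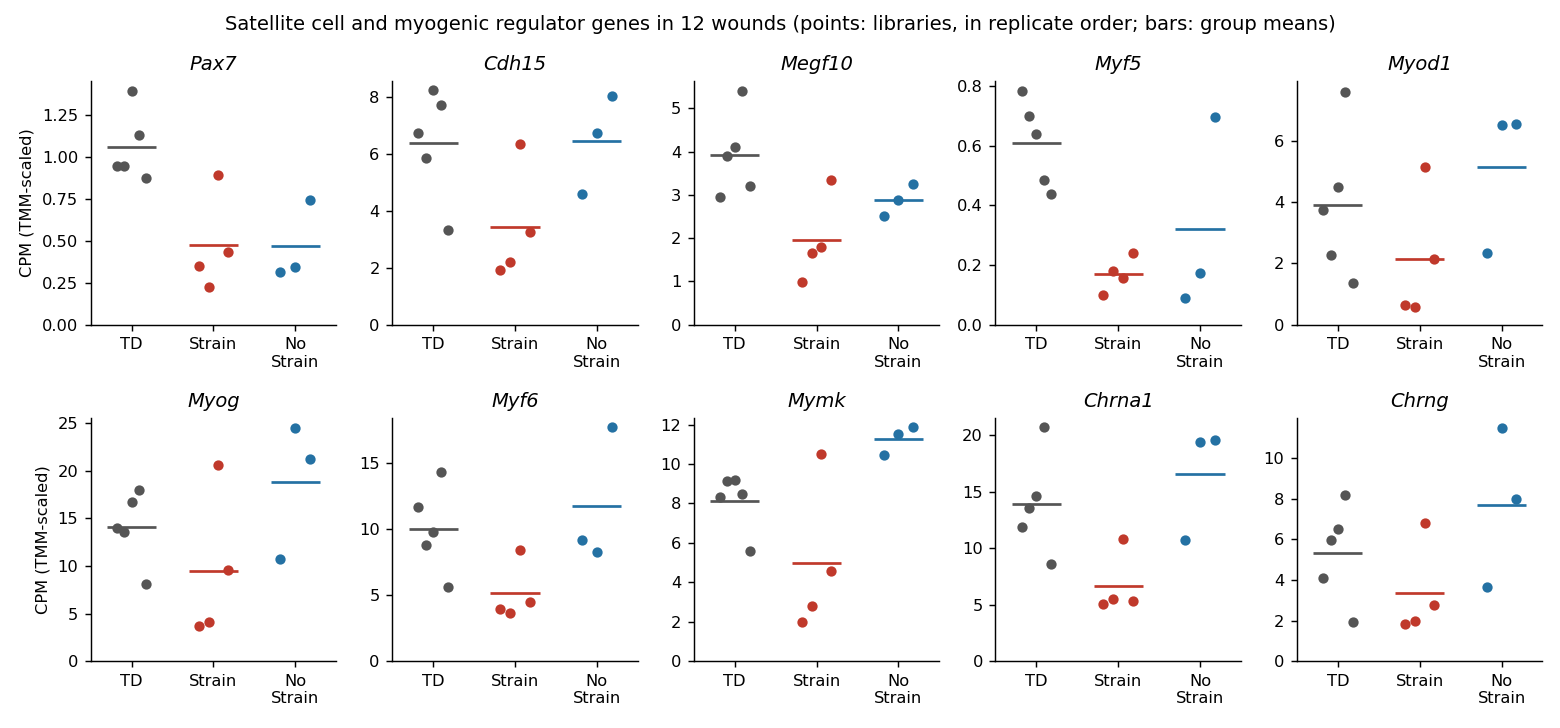
CPM of each of the 10 genes in each library, 1 panel per gene with its own axis; points are libraries, with 5 TD, 4 Strain and 3 No Strain libraries, and the horizontal bars are group means. The TD and No Strain points do not overlap for Pax7, lower in No Strain (as for 12.5% of all genes), or for Mymk, higher in No Strain (14.3%). Those of TD and Strain do not overlap for Myf5, lower in Strain (7.15%). Strain replicate 3, the third Strain point, is the highest of its group in 8 panels.

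Pax7 (ENSMUSG00000028736, chr4:139737062-139833528, minus strand; build GRCm38 and GENCODE M21 throughout) encodes the transcription factor that maintains satellite cells. Its level was 0.946, 0.945, 1.395, 1.13 and 0.877 CPM in the TD libraries, 0.348, 0.225, 0.8955 and 0.431 in Strain and 0.315, 0.343 and 0.743 in No Strain. All 3 No Strain libraries lay below all TD libraries, as for 12.5% of all genes, and 3 of the 4 Strain libraries did. Group means were 1.06 ± 0.210 (SD, n = 5), 0.475 ± 0.293 (n = 4) and 0.467 ± 0.240 CPM (n = 3). The mean of both patch groups was lower than TD, with a log2 difference of -1.15 (SE 0.320, edgeR adjusted p = 0.0236), a 2.22-fold lower level; 12.1% of all genes passed as lower in this comparison, 12.4% as higher and 24.4% in all. Taken alone, neither patch group passed, with log2 differences from TD of -1.12 for Strain (SE 0.375, adjusted p = 0.0706) and -1.18 for No Strain (SE 0.418, adjusted p = 0.0709). Between Strain and No Strain the difference was 0.06 with a 95% interval of -0.84 to 0.96, wide enough to hold a change of almost 1 log2 unit in either direction. The call for both patches was lost without TD replicate 3 or 4 or without No Strain replicate 1 or 2 (adjusted p up to 0.0624). It is also a call of a gene kept by the filter on low counts through TD, the group in which it is high. In whole tissue, fewer cells of a type and less RNA per cell cannot be told apart, here or for any gene below.

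Megf10 (ENSMUSG00000024593, chr18:57133090-57297467, plus strand) encodes a membrane receptor with epidermal growth factor-like repeats that satellite cells carry and that is linked to their proliferation. TD libraries held 2.96, 3.90, 4.11, 5.41 and 3.20 CPM, Strain libraries 0.994, 1.665, 1.79 and 3.355 and No Strain libraries 2.52, 2.87 and 3.25. The first 3 Strain libraries lay below every TD library, and the remaining one lay within the TD range. Megf10 was lower in Strain than in TD, with a log2 difference of -1.004 (SE 0.298, adjusted p = 0.0473). This call sat at the threshold and was lost on leaving out any library except Strain replicate 4 (adjusted p up to 0.131). For No Strain against TD the difference was -0.44 (adjusted p = 0.359), and for both patches against TD -0.72 (adjusted p = 0.0555).

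Cdh15 (ENSMUSG00000031962, chr8:122847966-122867397, plus strand) encodes M-cadherin, the adhesion molecule between satellite cell and fibre. Its values were 6.75, 5.875, 8.25, 7.71 and 3.33 CPM in TD, 1.94, 2.21, 6.35 and 3.26 in Strain and 4.59, 6.74 and 8.04 in No Strain. Strain replicate 3, at 6.35 CPM, sat inside the TD range while the other 3 Strain libraries were below every TD library. Strain differed from TD by -0.88 log2 units (SE 0.3655, adjusted p = 0.133), which did not pass. No Strain and TD had nearly equal means, 6.455 ± 1.74 (SD, n = 3) against 6.38 ± 1.93 CPM (SD, n = 5), with a 95% interval for the log2 difference of -0.74 to 0.77.

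Myf5 (ENSMUSG00000000435, chr10:107482908-107486134, minus strand) encodes the myogenic factor that marks committed satellite cells and myoblasts. It was read at 19, 17, 16, 12 and 10 counts in the TD libraries, 2, 4, 4 and 5 in Strain and 2, 4 and 15 in No Strain, or 0.782, 0.698, 0.638, 0.4845 and 0.438 CPM, 0.0994, 0.180, 0.156 and 0.240 CPM and 0.0900, 0.172 and 0.697 CPM. Every Strain library was below every TD library, while No Strain replicate 3 reached the TD range. Myf5 was lower in Strain than in TD (log2 difference -1.82, SE 0.504, adjusted p = 0.0371), and lower in the mean of both patch groups (log2 difference -1.38, SE 0.4045, adjusted p = 0.0295). Non-overlap in the lower direction was found for 7.15% of all genes between Strain and TD. No Strain against TD gave -0.94 (SE 0.501, adjusted p = 0.217), and without No Strain replicate 3 the same difference was -2.17 and passed (adjusted p = 0.0217). The Strain call was lost on leaving out any 1 of TD replicates 1 to 4 or any 1 Strain library (adjusted p up to 0.0946), and the call for both patches on leaving out TD replicate 1, 2 or 3 or No Strain replicate 2 (up to 0.0668). As for Pax7, these are calls of a gene kept by the filter through TD, the group in which it is high.

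Myod1 (ENSMUSG00000009471, chr7:46376474-46379099, plus strand) encodes the factor that commits activated satellite cells to the muscle lineage. Levels were 3.74, 2.26, 4.50, 7.59 and 1.36 CPM in TD, 0.646, 0.585, 5.14 and 2.16 in Strain and 2.34, 6.52 and 6.55 in No Strain. Strain replicates 1 and 2 were below every other library, and Strain replicate 3 was above all TD libraries but 1. The log2 difference from TD was -0.85 for Strain (SE 0.662, adjusted p = 0.425) and 0.40 for No Strain (SE 0.6825, adjusted p = 0.725). Neither exceeded the spread between libraries.

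Myog (ENSMUSG00000026459, chr1:134289989-134292548, plus strand) encodes myogenin, which drives myoblasts to differentiate. It stood at 13.95, 13.5, 16.7, 17.97 and 8.07 CPM in TD, 3.68, 4.14, 20.6 and 9.54 in Strain and 10.7, 24.5 and 21.2 in No Strain. The highest values of all were those of No Strain replicates 2 and 3 and Strain replicate 3, and the lowest those of Strain replicates 1 and 2. Myog differed from TD by -0.56 in Strain (SE 0.473, adjusted p = 0.464) and 0.42 in No Strain (SE 0.500, adjusted p = 0.596), and its groups overlapped in both comparisons.

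Myf6 (ENSMUSG00000035923, chr10:107492853-107494737, minus strand), the neighbour of Myf5 on chromosome 10, encodes MRF4, the myogenic factor most abundant in fibres. Its values were 11.7, 8.79, 9.77, 14.3 and 5.66 CPM in TD, 3.975, 3.69, 8.45 and 4.505 in Strain and 9.18, 8.32 and 17.75 in No Strain. Strain replicates 1, 2 and 4 lay below every TD and No Strain library. The log2 difference of Strain from TD was -0.96 (SE 0.339, adjusted p = 0.0860), and that of No Strain from TD was 0.22 (SE 0.354, adjusted p = 0.703). The highest value of the 12 libraries was that of No Strain replicate 3.

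Mymk (ENSMUSG00000009214, chr2:27061636-27072179, minus strand) encodes myomaker, the membrane protein required for myoblast fusion. TD libraries held 8.35, 9.16, 9.17, 8.48 and 5.57 CPM, Strain libraries 1.99, 2.79, 10.5 and 4.601 and No Strain libraries 10.4, 11.5 and 11.85. All No Strain libraries lay above all TD libraries, as for 14.3% of all genes in that direction, while Pax7 was among the 12.5% whose No Strain libraries all lay below. The fitted difference of No Strain from TD was 0.47 (SE 0.406, adjusted p = 0.458) and did not pass. For Strain against TD it was -0.70 (SE 0.388, adjusted p = 0.255).

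Chrna1 (ENSMUSG00000027107, chr2:73563215-73580338, minus strand) encodes the alpha subunit of the muscle acetylcholine receptor, which binds acetylcholine. Its level was 11.85, 13.6, 14.6, 20.75 and 8.59 CPM in TD, 5.07, 5.54, 10.8 and 5.32 in Strain and 10.7, 19.4 and 19.6 in No Strain. Strain replicates 1, 2 and 4 lay together at 5.07 to 5.54 CPM, below every other library, and replicate 3 stood apart at 10.8. Chrna1 was lower in Strain than in TD (log2 difference -1.05, SE 0.307, adjusted p = 0.0460), a 2.07-fold lower level. The call was lost on leaving out any 1 of TD replicates 1 to 4, of Strain replicates 1, 2 and 4 or of No Strain replicates 2 and 3 (adjusted p up to 0.134). No Strain against TD gave 0.26 (SE 0.3195, adjusted p = 0.618).

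Chrng (ENSMUSG00000026253, chr1:87204657-87212694, plus strand) encodes the gamma subunit, which the fetal and denervated form of the receptor holds in place of the adult epsilon subunit. It was measured at 4.11, 5.96, 6.50, 8.20 and 1.93 CPM in TD, 1.84, 1.98, 6.81 and 2.78 in Strain and 3.645, 11.5 and 7.99 in No Strain. The groups overlapped in every comparison. Log2 differences from TD were -0.66 for Strain (SE 0.500, adjusted p = 0.410) and 0.53 for No Strain (SE 0.520, adjusted p = 0.514).

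Against TD, the Strain wounds thus held lower fitted levels of all 10 genes, and 3 of them, Myf5, Chrna1 and Megf10, passed the test as lower (6.41% of all genes passed in that direction). At an unadjusted p under 0.05 there were 6 of 10, where 29.5% of all genes had one, and 47.2% of all genes had a fitted difference below 0. The median log2 difference of the 10 genes was -0.92, beside 0.02 over all genes. In No Strain wounds 3 of the 10 were below TD, Pax7, Myf5 and Megf10, and 7 were above (49.3% of all genes were below). No gene of the 10 passed with edgeR, and DESeq2 called 1, Pax7. Pax7 was also the only 1 of the 10 with an unadjusted p under 0.05, beside 33.5% of all genes, and the median log2 difference was 0.24. For both patches against TD, Pax7 and Myf5 passed as lower, where 12.1% of all genes did. Both were kept by the filter on low counts through TD, the group where they are high. Of the 10 genes, 3 had an unadjusted p under 0.05 beside 38% of all genes, and all 10 fitted values were below 0 beside 48.5%. These comparisons share the TD libraries and so do not stand independently.

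**Figure D2:**
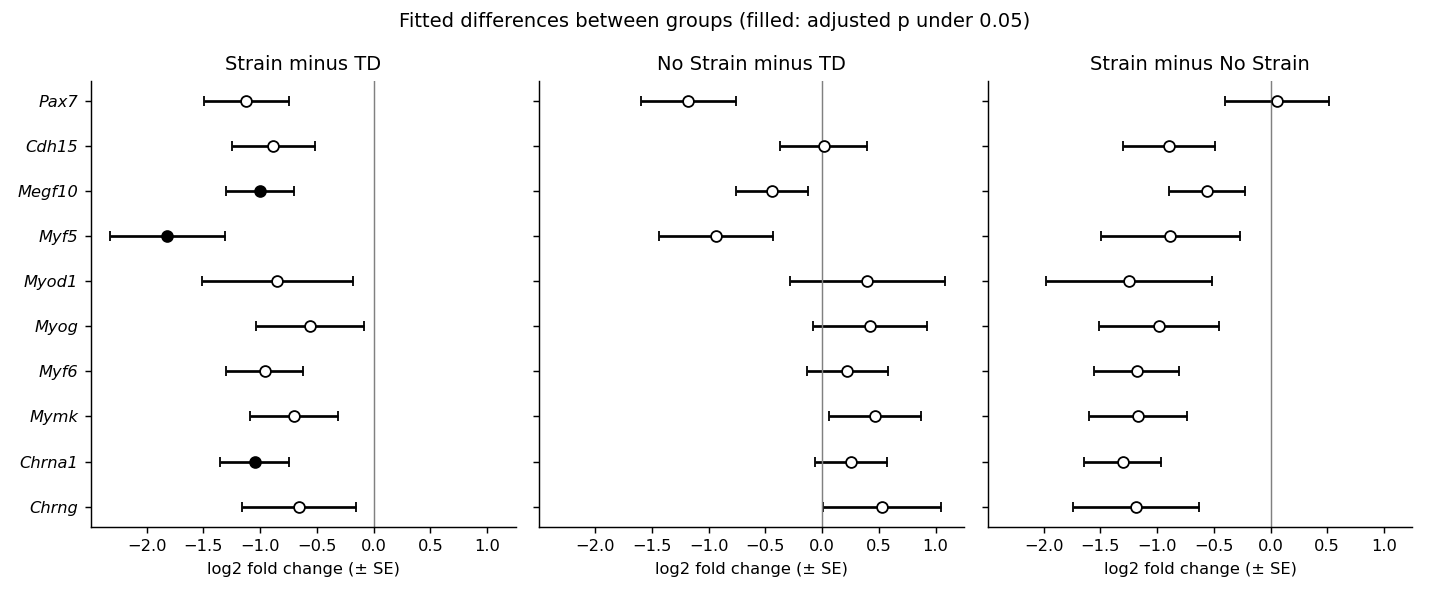
Fitted log2 fold change of each of the 10 genes, Strain minus TD, No Strain minus TD and Strain minus No Strain; points are edgeR estimates, bars are 1 standard error on each side, and filled points have an adjusted p under 0.05. All Strain against TD points lie below 0, and in No Strain against TD only Pax7, Myf5 and Megf10 do.

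Strain against No Strain is the comparison that sets imposed strain apart from wearing a patch. No gene passed among the 10 or among all 18618 genes tested with edgeR (0%). DESeq2 called 33 of all genes and none of the 10. Fitted differences were below 0 for 9 of the 10 genes, all but Pax7, beside 47.8% of all genes, and their median was -1.08 beside 0.01 over all genes. At an unadjusted p under 0.05 there were 4 of 10 genes, where 5.61% of all genes had one: Chrna1, Myf6, Mymk and Cdh15. The 95% intervals, computed from the standard errors with a normal distribution and not adjusted for the number of genes, were -1.97 to -0.64 for Chrna1, -1.92 to -0.44 for Myf6, -2.01 to -0.32 for Mymk and -1.70 to -0.10 for Cdh15. The others were -2.28 to -0.10 for Chrng, -2.68 to 0.19 for Myod1, -2.02 to 0.05 for Myog, -2.08 to 0.31 for Myf5 and -1.22 to 0.10 for Megf10. Adjusted p ran from 0.872 to 0.998, and for none of the 10 were the libraries separate, beside 5.62% of all genes whose libraries were. The samples thus leave differences of more than 1 log2 unit possible for 9 of these genes, and the missing calls do not show equal levels.

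A single Strain library stood apart. Strain replicate 3 was the highest of its group in 8 of the 10 genes, all but Myf5 and Megf10, and replicate 1 the lowest in 7. The summed level of the 10 genes was 20.6, 23.0, 71.4 and 36.2 CPM in the Strain libraries, 65.2, 64.7, 75.7, 92.1 and 39.0 in TD and 54.6, 91.9 and 97.7 in No Strain. Strain replicate 3 thus lay within the TD range, while the other 3 lay below every TD library. Strain replicate 3 was singled out by its values in these same genes. For the 8 genes in which it was highest, leaving it out lowers the Strain mean by construction, so calls gained that way are no separate evidence. Without Strain replicate 3, 2458 of all genes passed between Strain and TD, beside 2349 with it. Of the 10 genes, 5 then passed as lower in Strain than in TD: Mymk at -1.39 (adjusted p = 0.0102), Chrna1 at -1.40 (0.0151), Pax7 at -1.67 (0.0157), Cdh15 at -1.38 (0.0212) and Myf6 at -1.32 (0.0283). Myf5 and Megf10 then missed the threshold, at adjusted p of 0.0676 and 0.0834. Values of the genes that passed neither way moved as well, Myod1 from -0.85 to -1.795 (adjusted p = 0.0940), Myog from -0.56 to -1.29 (0.0545) and Chrng from -0.66 to -1.29 (0.100). Without that library Pax7 also passed as lower in No Strain than in TD, at -1.18 (adjusted p = 0.0333). Between Strain and No Strain none of the 10 passed even then, and the smallest adjusted p was 0.145, for Mymk at -1.86. In that comparison Myod1 moved from -1.25 to -2.195, Myog from -0.98 to -1.71, Chrng from -1.19 to -1.82 and Cdh15 from -0.90 to -1.395, while Pax7 turned from 0.06 to -0.48. Within TD, replicate 5 was the lowest in 9 of 10 genes, and within No Strain replicate 1 was.

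Mature muscle and the 10 genes both had lower mean sums in Strain than in TD. In No Strain the 10 genes summed to 81.4 ± 23.4 CPM (SD, n = 3), beside 67.3 ± 19.3 in TD (n = 5), while the mean of mature muscle was lower than in TD. Both sums overlapped between No Strain and TD, and no test compared the sums. The 10 genes did not move as a set there: Pax7, Myf5 and Megf10 had fitted levels below TD and the rest above. The part of mature muscle in the muscle lists described below was not tested. Of 21 tested genes of mature fibres, among them the actin Acta1 and the creatine kinase Ckm, 16 passed as lower in Strain than in TD and 4 in No Strain, with median log2 differences of -1.53 and -0.81. The summed CPM of that list was 13990 ± 4327 (SD, n = 5) in TD, 5165 ± 1462 (n = 4) in Strain and 8531 ± 3239 (n = 3) in No Strain. Strain libraries held 3836, 4716, 7250 and 4858 CPM, so replicate 3 was the highest of its group here as well. Per 100000 CPM of mature muscle, the 10 genes summed to 466, 514, 376, 610 and 479 CPM in TD, 536, 488, 985 and 745 in Strain and 688, 1630 and 812 in No Strain. On this scale every No Strain library was above every TD library, and Strain replicates 1 and 2 lay within the TD range. The mature muscle sum that divides this ratio was itself lower on average in No Strain than in TD. The share of all genes separate on this scale is not given here, so the separation is not read as particular to the 10 genes. A second fit held the mean log2 CPM of the mature list as a covariate. With it, 7 of the 10 genes had a fitted difference above 0 in Strain against TD, with a median of 0.44, and none passed (0.00537% of all genes did). No Strain against TD likewise had 7 above 0, with a median of 0.90 and a smallest adjusted p of 0.0817 for Myf6, and none passed beside 4.97% of all genes. For both patches against TD 7 were above 0, with a median of 0.69, and none passed (0.693% of all genes did). Strain against No Strain kept 9 of 10 below 0, with a median of -0.55 beside -1.08 without the covariate, and none passed (0% of all genes). Standard errors in Strain against TD reached 1.07 in that fit, beside at most 0.662 without the covariate. Summed mature muscle did not overlap between Strain (at most 7250 CPM) and TD (at least 8152 CPM). The fit therefore cannot set group and muscle level apart in that comparison, and no conclusion is drawn from its signs.

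**Figure D3:**
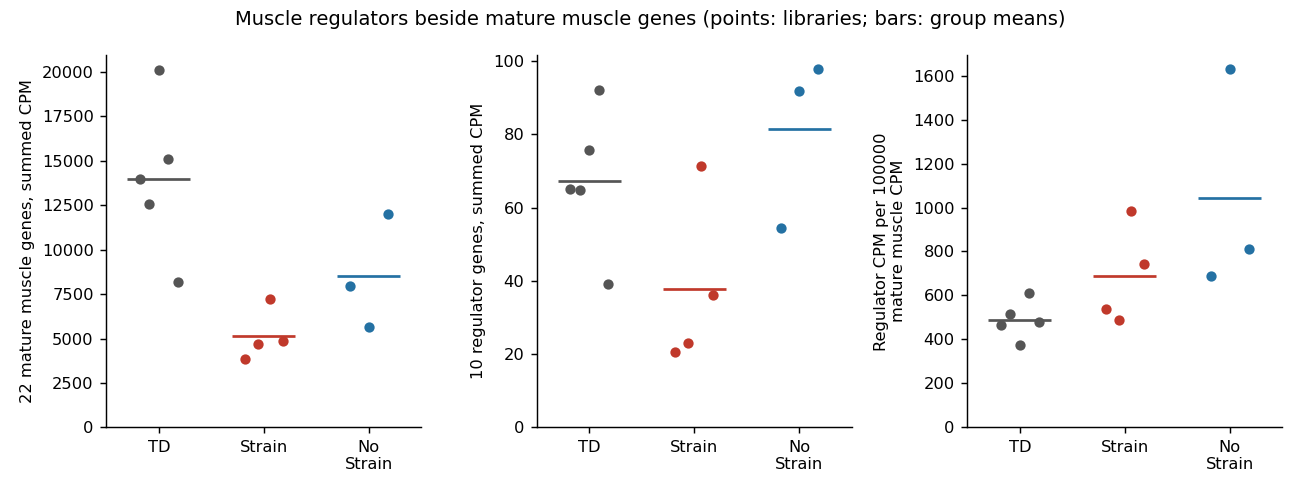
Summed CPM of 22 mature muscle genes, summed CPM of the 10 genes, and the second per 100000 CPM of the first; points are libraries (5 TD, 4 Strain and 3 No Strain) and bars group means. Strain libraries lie at 3836 to 7250 CPM of mature muscle. In the ratio, No Strain libraries lie at 688 to 1630 and TD libraries at 376 to 610; the share of all genes separate in this way is not given.

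The level of a differentiation gene beside that of a stem cell gene was described by the ratio of Myog to Pax7 counts. This ratio was chosen after the values were seen and was therefore not tested. It was 14.7, 14.3, 12.0, 15.9 and 9.2 in TD, 10.6, 18.4, 23.0 and 22.1 in Strain and 34, 71.4 and 28.6 in No Strain. Every No Strain library had more Myog per Pax7 count than any library of the other 2 groups, and Strain replicates 2, 3 and 4 were above all TD libraries. The denominators are small, with 7, 8 and 16 Pax7 counts in the No Strain libraries. Pax7 was kept by the filter on low counts through TD, and all its No Strain values lay below TD. The separation of No Strain from TD in this ratio thus partly restates that difference. The share of gene pairs separate in this way is not given, and no change of cell state is read from the ratio.

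**Figure D4:**
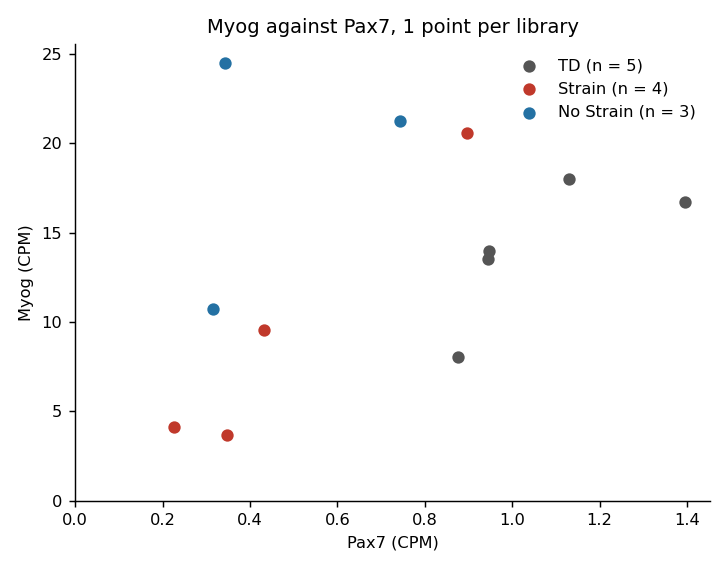
Myog against Pax7, both in CPM, 1 point per library and 1 colour per group (5 TD, 4 Strain and 3 No Strain). TD libraries lie to the right, at 0.877 to 1.40 CPM of Pax7, and the No Strain libraries reach 24.5 CPM of Myog at 0.315 to 0.743 CPM of Pax7.

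The 10 genes varied together over the 12 libraries. Over their 45 pairs, the median Pearson r of log2 CPM was 0.71, from 0.33 for Myf5 with Chrng to 0.97 for Myod1 with Myog, and it was 0.72 with the group means removed, so the shared variation also ran within groups. All such values are descriptions over the same 12 libraries, whose muscle content and depth differ. Among all other genes tested, those most like the mean of the 10 were Akap6, Klhl30, Asb5, Myo18b and Tnnt2 (r 0.97 each). Chrna1 was most like the receptor subunit genes Chrnd (0.97) and Chrnb1 (0.96) and Trim55 (0.95), and Chrng most like Chrnb1 (0.93), Chrnd (0.90) and Musk (0.90). Mymk was most like Myl4 (0.99), the embryonic light chain gene, then Nes (0.95) and Reep1 (0.95), and Myog most like Nes (0.96), Tnnt2 (0.95) and Myl4 (0.94). For Myod1 these were Pdlim3 (0.96), Chrnb1 (0.95) and Adprhl1 (0.94), for Myf6 Nexn, Klhl30 and Tnni1 (0.94 each), and for Cdh15 Tnnt2, Trim63 and Cap2 (0.97 each). The closest genes to Pax7 were Prkaca, Otud1 and Prob1 (0.96 each), to Myf5 Gm14319 (0.92), Ttc7b (0.92) and Dym (0.91), and to Megf10 Carns1 (0.93), Klhdc3 (0.92) and Gm31305 (0.91).

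Counts in the lists below stand beside the shares of all genes called against TD. These were 6.41% lower and 6.2% higher in Strain, 8.4% and 9.35% in No Strain, and 12.1% and 12.4% for both patches. Other satellite cell genes gave calls in both directions. Of 18 such genes 17 were tested, all but Calcr, with a median log2 difference from TD of -0.40 in Strain and -0.29 in No Strain. Vcam1, an adhesion molecule that endothelial cells also carry, passed as higher in Strain (log2 1.045, adjusted p = 0.00726) and in No Strain (1.17, 0.00357); the part of endothelial cells, whose markers were higher as well, was not tested. Spry1, an inhibitor of growth factor signalling that keeps satellite cells quiescent, passed as lower in Strain (-0.28, 0.0456) and in No Strain (-0.29, 0.0451). No Strain also had higher Met, the hepatocyte growth factor receptor gene (0.60, adjusted p = 0.0407), and lower Pax3, the paralog of Pax7 (-1.85, 0.0387), the latter from 0.707 ± 0.250 (SD, n = 5) in TD to 0.189 ± 0.176 CPM (n = 3). Low counts limit the Pax3 call, which was read from 19, 10, 27, 14 and 16 counts in TD and 3, 9 and 1 in No Strain. For both patches the calls were 2 higher (Vcam1, Met) and 3 lower (Spry1, Fgfr4 and Heyl), with Fgfr4 at -0.95 and Heyl, a Notch target, at -0.62. Between Strain and No Strain none passed, and the smallest p were those of Pax3 (1.78, adjusted p = 0.872) and Ncam1 (-0.60, 0.887).

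Of 18 genes listed under differentiation and fusion, a list that also holds genes of formed fibres, 6 passed as lower and 1 as higher in Strain against TD. The 5 lower ones with the smallest p were Hjv (-1.605, adjusted p = 0.00694), Srl (-1.42), Lmod3 (-1.21), Mef2c (-0.93), a transcription factor that works with the myogenic factors, and Jsrp1 (-1.16, 0.0268). Among those that did not pass were the fusion gene Mymx (-0.75, adjusted p = 0.195) and Mef2a, Mef2d, Tcf12, Jam3, Cdon and Kirrel. The calls are therefore not a measure of differentiation and fusion alone. The higher one was Adgrb3, an adhesion receptor gene linked to myoblast fusion and also to neurons, which stood at 0.396 ± 0.0891 CPM in TD (SD, n = 5), 2.16 ± 0.428 in Strain (n = 4) and 2.615 ± 1.69 in No Strain (n = 3). The log2 differences of Adgrb3 from TD were 2.43 (adjusted p = 0.007885) and 2.71 (0.00377). In No Strain 2 of 18 passed as higher, Adgrb3 and the cell cycle inhibitor gene Cdkn1c (1.075, 0.0262), and 2 as lower, the co-receptor gene Boc (-0.73, 0.0246) and the netrin receptor gene Neo1 (-0.32, 0.04535). The mean of both patch groups gave 2 higher and 7 lower. None passed between Strain and No Strain, where Lmod3 (-0.96) and Hjv (-0.93) had the smallest p (adjusted p = 0.872 for both).

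At the receptor and neuromuscular junction, 8 of 16 genes passed as lower in Strain than in TD and none as higher, with a median of -0.71. They included the sodium channel Scn4a (-1.77, adjusted p = 0.00472), Dok7 (-1.315), the acetylcholinesterase gene Ache (-1.38), Utrn (-0.25) and Chrne (-1.45, 0.0374). Chrne, the adult epsilon subunit that replaces the product of Chrng, stood at 1.60, 2.59, 2.55, 1.49 and 2.06 CPM in TD, 0.149, 1.26, 1.01 and 0.527 in Strain and 1.035, 0.901 and 0.883 in No Strain, so all patched libraries lay below all TD libraries, although No Strain alone did not pass against TD. Over all genes, the Strain libraries all lay below TD for 7.15% and the No Strain libraries for 12.5%. The share for both patch groups together is not given here. The fetal subunit gene Chrng, in contrast to Chrne, overlapped TD in both patch groups. In No Strain 5 of 16 passed as lower, among them Utrn (-0.38), Scn4a (-1.13), Ache (-1.33) and Lrp4 (-0.91), and for both patches 8. Rapsn (-0.71) and Dok7 (-1.075) had the smallest p between Strain and No Strain, where none passed (adjusted p = 0.872 for both).

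Genes of immature or denervated fibres had a median log2 difference from TD of -0.64 in Strain and 0.38 in No Strain. In Strain 3 of 18 passed, all lower: the perinatal myosin Myh8 (-1.56, adjusted p = 0.00462), the atrophy gene Fbxo32 (-0.87, 0.0201) and Hdac9 (-0.70, 0.0230). In No Strain Gadd45a passed as higher (0.75, 0.00719), and Hdac9 (-1.13) and Fbxo32 (-0.78) as lower. Myh8 was 120 ± 29.0 CPM in TD (SD, n = 5), 40.6 ± 6.32 in Strain (n = 4) and 123 ± 34.8 in No Strain (n = 3), and its Strain libraries lay below all others. Strain libraries all lay below TD for 7.15% of all genes, and were separate from No Strain in either direction for 5.62%. Even so, no gene of the list passed between Strain and No Strain, where Myh8 (-1.59, adjusted p = 0.402) and Tnni1 (-2.09, 0.696) had the smallest p. For both patches 1 passed as higher and 4 as lower.

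Among 11 regulators, most of which restrain myogenesis, Mstn, the gene of the muscle growth inhibitor myostatin, was lower in both patch groups than in TD. It stood at 11.2, 15.7, 27.3, 9.33 and 9.56 CPM in TD, 1.94, 4.95, 1.05 and 1.58 in Strain and 1.80, 0.772 and 0.511 in No Strain, with no overlap between TD and patched libraries. For each patch group alone, non-overlap in that direction was found for 7.15% (Strain) and 12.5% (No Strain) of all genes. The log2 differences of Mstn were -2.62 for Strain (adjusted p = 0.0123) and -3.82 for No Strain (0.004415). Id2, an inhibitor of E proteins expressed in many cell types, passed as higher in Strain (0.625, 0.0207) and No Strain (0.77, 0.00888), and Twist1 as lower in No Strain (-0.77, 0.0334). The mean of both patch groups gave 2 higher and 3 lower. Snai2 (0.31) and Mstn (1.20) had the smallest p between Strain and No Strain, where none passed (adjusted p = 0.872 for both).

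**Figure D5:**
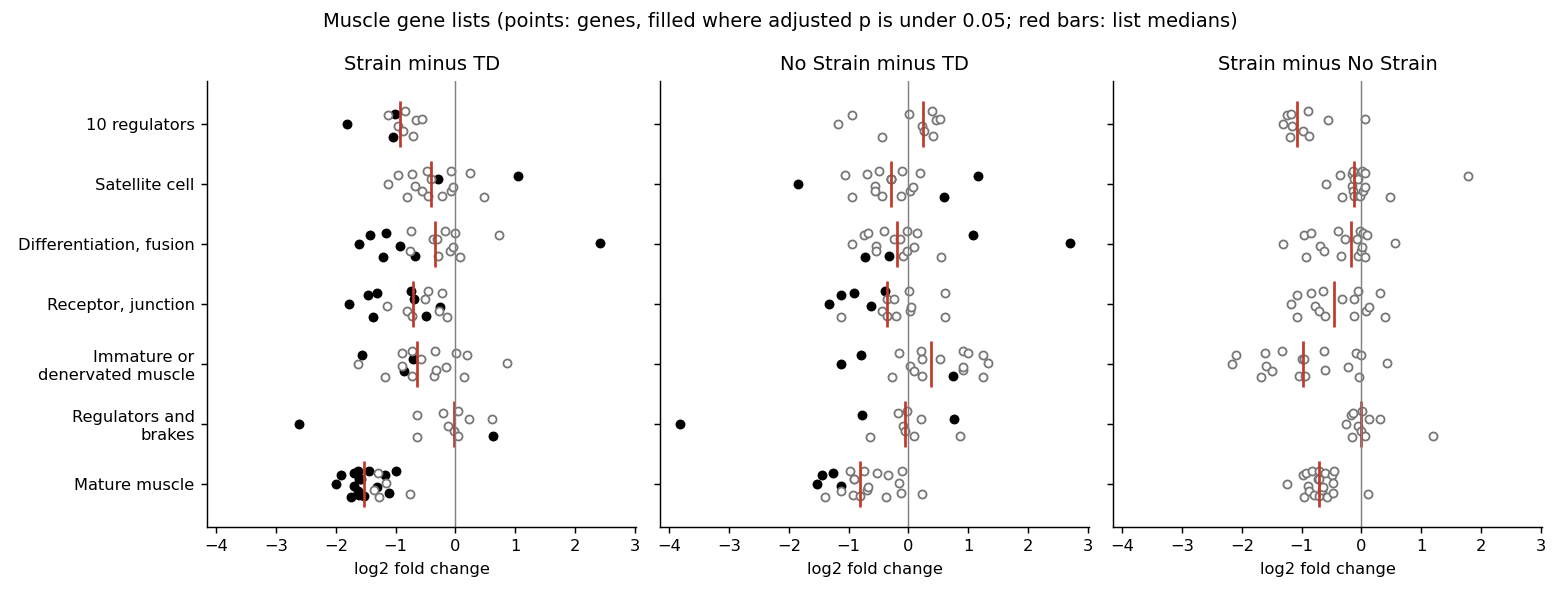
Fitted log2 fold changes of all tested genes in the 10 genes and the muscle-related lists, for Strain against TD, No Strain against TD and Strain against No Strain; each point is a gene, filled where its adjusted p is under 0.05, and red bars are list medians. The mature muscle list has its medians at -1.53 and -0.81 against TD, and the 10 genes theirs at -0.92 and 0.24.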

How the data were processed

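Each library has 1 deposited table of unnormalized read counts by Ensembl gene identifier. Per the submitters' processing notes, bcl2fastq 2.17, FastQC, cutadapt, STAR, featureCounts, DESeq2 and the build GRCm38 were used by the authors. The annotation, the strand setting and the handling of reads matching several genes are not given in the sources used here. Per the labels' protocols, libraries were made from oligo(dT)-selected RNA.

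Of 54232 identifiers, 54079 matched a symbol in GENCODE M21, and all 158 listed genes were found, 1 (Hjv) through a RefSeq synonym. No exon of the 10 genes overlaps another gene in that annotation. Genes were kept by filterByExpr of edgeR 4.0.16 (minimum count 10, minimum total 15; R 4.3.3), scaled by TMM, and fitted by its quasi-likelihood test with robust spread over all 12 libraries. Adjusted p (Benjamini-Hochberg, over 18618 genes) had a threshold of 0.05. Standard errors are the absolute log2 fold change divided by the square root of F. Log2 CPM, used for correlations, adds a prior count of 2. The script was tested on simulated data. Within groups, 19 library pairs were compared, with a chi-square per degree of freedom of 8.69 to 67.1, and none agreed within sampling noise.

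The 10 genes and all lists were chosen with earlier results of these data known. All 10 genes are named. From each list and comparison, up to 6 genes past the threshold with the smallest p are named, or 2 not passing where none did (1 such gene is not reported here), and as most alike the 3 genes of highest Pearson r per gene and 5 for the mean of the 10. Alternatives were DESeq2 size factors, DESeq2 1.42.0, library totals, no filter, a mean of at least 1 CPM, only the groups compared, the title letter L or R (meaning not stated) or mature muscle as a covariate, and leaving out each library. The letter is not balanced: TD libraries are R except replicate 1, and Strain libraries are L except replicate 3. Within Strain, the letter and replicate 3 therefore cannot be told apart.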

Additional observations from a re-analysis of the deposited data

Results flagged for a closer look

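Log2 CPM of each of the 10 genes was screened for single distant libraries within TD and within Strain, 20 group values in all, of which 2 stood out. Chance alone gives about 1 in 20. Mymk in TD replicate 5 was 2.499 log2 CPM, below the next lowest TD library at 3.08, and the gap was 0.813 of the group's range, above the critical value of 0.710 for 5 libraries. Chrna1 in Strain replicate 3 was 3.44 log2 CPM, above the next highest Strain library at 2.49, with a gap of 0.883 of the range and a critical value of 0.829 for 4 libraries. In the same libraries the mature muscle list summed to 8152 CPM, the lowest of TD, and to 7250 CPM, the highest of Strain. The part of muscle content in these 2 values was not tested.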

How the results depend on the processing

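Low counts limit Pax7 and Myf5, and groups of 3 to 5 libraries limit every comparison; the calls among the 10 genes lay near the threshold. In Strain against TD, 3 genes passed; 5 did with DESeq2, 1 with the title letter as a covariate, 1 with only the groups compared, and 0 with no filter or with mature muscle as a covariate. In No Strain against TD, 0 passed, but 1 (Pax7) did with DESeq2 or with only the groups compared. For both patches against TD, 2 passed, 1 with the title letter, 0 with mature muscle, and 0 with a mean of at least 1 CPM, which left Pax7 and Myf5 untested. Leaving out 1 library gave 0 to 5 genes for Strain against TD (5 without Strain replicate 3, 2 without TD replicate 5 or No Strain replicate 1, 1 without Strain replicate 4 or No Strain replicate 2 or 3, otherwise 0), 0 to 1 for No Strain against TD (1 without No Strain replicate 3, Myf5, or Strain replicate 3, Pax7), 0 to 3 for both patches (3 without Strain replicate 4) and 0 to 0 for Strain against No Strain.

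Over all genes, counts of 0, 2349, 3305 and 4552 for Strain against No Strain, Strain against TD, No Strain against TD and both patches against TD became 33 for the first with DESeq2, 1527 for the second with no filter, 798, 2145 and 2589 for the last 3 with the title letter, and 1, 926 and 129 with mature muscle. Leaving out 1 library gave 882 (without Strain replicate 2) to 2458, 1505 (without No Strain replicate 3) to 3415 and 3176 to 4570 for these 3, and 0 to 0 for the first. Under library totals the split of higher against lower calls was 1257 to 2046 for No Strain against TD (1741 to 1564 with TMM) and 1787 to 2668 for both patches (2300 to 2252).

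Single genes were fitted under 779 alternatives: 678 kept direction and side of the threshold, 49 lost a call, 13 gained one and 39 turned direction. With mature muscle as a covariate, Strain against TD became 0.13 for Pax7, 0.92 for Myod1, 0.63 for Myog, 0.45 for Myf6, 0.43 for Mymk, 0.54 for Chrng and 0.48 for Cdh15, and both patches against TD became 1.26 for Myod1, 0.93 for Myog, 0.70 for Myf6, 0.81 for Mymk, 0.27 for Chrna1, 0.96 for Chrng and 0.67 for Cdh15, none of them past the threshold. With the title letter, both patches against TD became 0.00369 for Myod1, 0.13 for Myog, 0.11 for Mymk and 0.18 for Chrng, and with library totals Cdh15 in No Strain against TD became -0.0549. Leaving out 1 library spanned 0 for Strain against No Strain in Pax7 (-0.48 to 0.55) and Myf5 (-1.33 to 0.35), for No Strain against TD in Cdh15 (-0.17 to 0.21) and Myf6 (-0.20 to 0.42), and for both patches in Myod1 (-0.70 to 0.16), Myog (-0.43 to 0.073), Mymk (-0.46 to 0.0127) and Chrng (-0.38 to 0.14). Except for settings that test fewer genes or fewer libraries, the cause was not tested. Fits on only the groups compared were not run for both patches against TD, since all groups are compared there, and gave no value for Pax7 and Myf5 in Strain against No Strain. No paired analysis was possible because the labels give no replicate numbers shared between groups.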

Other observations

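The partner genes of the fusion and receptor members, chosen after their values were seen, had the following levels. Mymx, whose product myomixer acts with myomaker in fusion, stood at 2.23 ± 0.832 CPM in TD (SD, n = 5), 1.31 ± 0.728 in Strain (n = 4) and 3.28 ± 0.812 in No Strain (n = 3), and passed in no comparison (edgeR adjusted p = 0.195 for Strain and 0.328 for No Strain against TD). The delta subunit gene Chrnd was at 6.75 ± 3.00 CPM in TD, 3.04 ± 1.37 in Strain and 6.92 ± 2.58 in No Strain (SD, n = 5, 4 and 3), with an adjusted p of 0.0653 for Strain against TD. The beta subunit gene Chrnb1 was at 13.4 ± 4.09 CPM in TD, 8.11 ± 2.95 in Strain and 13.9 ± 2.87 in No Strain, with an adjusted p of 0.102 for Strain against TD. Myh3, the embryonic myosin of newly formed fibres, was at 48.95 ± 19.3 CPM in TD, 38.5 ± 20.2 in Strain and 124 ± 61.9 in No Strain, a log2 difference of 1.34 for No Strain against TD that did not pass (SE 0.442, adjusted p = 0.0568).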
